A study of Mus musculus with 8 samples.

Results

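Reads that carried 4 or 5 CpG calls are described here in mouse embryonic stem cells in which 5-hydroxymethylcytosine (5hmC) was made by an inducible TET3 catalytic domain. CpG calls were counted per read name in each library, and reads with 4 or 5 calls on chromosomes 1 to 19 were kept. They numbered 78404 of 832996 reads (9.41%) and held 339653 of 1849087 calls (18.4%). Of them, 52367 reads carried 4 calls and 26037 carried 5. Since such a read reports several neighbouring CpGs of 1 DNA molecule, it shows whether undeaminated CpGs lie together on a molecule, which a call from a read with a single CpG cannot show.

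All cells lacked TET1, TET2 and TET3 and carried, by PiggyBac transposition, the catalytic domain of mouse TET3 under a doxycycline-inducible promoter with an mCherry reporter behind an internal ribosome entry site. All were kept with 50 µg/ml ascorbate. The groups were untreated cells (0 h, named A to C), cells given 1 µM doxycycline for 6 h (A and B) and cells given it for 12 h (A to C). The domain lacks the rest of the TET3 protein, and the labels do not say whether libraries came from separate cultures or whether the line is 1 clone, so p-values measure only the spread between these libraries, which may be technical. The reads are genomic DNA and carry no expression of marker genes, so the cell type could not be checked against its markers.

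TET enzymes oxidise 5-methylcytosine, the mark that DNA methyltransferases place mainly at CpGs, first to 5hmC and then to further oxidised forms that can be removed by base excision repair. In embryonic stem cells most CpGs outside CpG islands are methylated, while promoters in CpG islands are largely unmethylated and so offer TET enzymes little substrate. In APOBEC-coupled sequencing 5hmC is glucosylated and so protected, while the deaminase converts cytosine and 5-methylcytosine. An undeaminated call, written Z, is read as 5hmC plus assay background, and a deaminated call is written z.

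In order of their letters, the libraries of untreated cells held 6595, 3635 and 4333 of these reads, those of 6 h held 3077 and 12720, and those of 12 h held 19045, 20809 and 8190. The median distance from the first to the last call of a read was 85 bp, with 35 to 126 bp as the 5th and 95th percentiles and 142 bp as the longest. Neighbouring calls lay a median of 19 bp apart. Within 1 kb of an end of a protein-coding gene lay 8.35% of these reads, against 5.76% of reads with 3 calls and 21.5% of reads with 6 to 10. Per library, 1.49 to 4.20% of reads were repeats, meaning that a read with the same positions and calls was also present.

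Stretches of reference sequence before gene starts show what such a read covers. The reads that lay wholly in the 250 bases before the start of a protein-coding gene numbered 329 and belonged to 328 genes. Some places in the genome were left aside before genes were chosen, so the ranking does not cover all of these genes. In the places kept, the most such reads per gene was 2, and genes with 2 are given in order of chromosome position. Gm38523 also had 2 and is not printed. Each sequence is given 5′ to 3′ on the gene's strand from RefSeq (GRCm38), with the called CpGs in capitals.
Tcf23, chr5:30968460-30968660, plus strand: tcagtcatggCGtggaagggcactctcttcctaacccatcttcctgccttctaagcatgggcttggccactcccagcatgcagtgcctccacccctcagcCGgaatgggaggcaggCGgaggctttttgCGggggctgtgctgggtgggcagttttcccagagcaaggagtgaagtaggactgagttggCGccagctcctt
Rnf216, chr5:143113209-143113266, minus strand: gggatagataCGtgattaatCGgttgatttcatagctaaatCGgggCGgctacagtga
Polr1a, chr6:71908818-71909025, plus strand: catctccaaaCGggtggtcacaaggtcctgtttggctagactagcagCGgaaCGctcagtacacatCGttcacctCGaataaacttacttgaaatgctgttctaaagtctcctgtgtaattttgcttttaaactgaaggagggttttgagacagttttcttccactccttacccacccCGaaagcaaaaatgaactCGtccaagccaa
All calls on the reads of Tcf23, Rnf216 and Polr1a were z, at 6 h and, for Tcf23 and Rnf216, also at 12 h. Tcf23 encodes a basic helix-loop-helix protein, Rnf216 a ubiquitin ligase and Polr1a the largest subunit of RNA polymerase I.

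A second set, with the same places left aside, was chosen for the most Z on promoter reads at 12 h, so its patterns are examples only. Each was covered by 1 such read, from 12 h library A for Sgo2a, Tssk3 and Htr2a and from 12 h library C for Olfr283.
Sgo2a, chr1:57985118-57985238, plus strand: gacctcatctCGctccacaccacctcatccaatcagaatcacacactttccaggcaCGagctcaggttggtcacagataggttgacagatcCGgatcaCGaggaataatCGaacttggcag
Tssk3, chr4:129490859-129490954, minus strand: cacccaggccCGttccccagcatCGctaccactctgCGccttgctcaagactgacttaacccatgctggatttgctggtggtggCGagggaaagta
Htr2a, chr14:74640754-74640801, plus strand: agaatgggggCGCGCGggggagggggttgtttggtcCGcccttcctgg
Olfr283, chr15:98379272-98379364, minus strand: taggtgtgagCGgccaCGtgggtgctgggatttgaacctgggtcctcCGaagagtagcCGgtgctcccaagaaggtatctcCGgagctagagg
In the order of the capitals, the calls were ZzZZz at Sgo2a (a shugoshin that protects cohesin), ZzZZ at Tssk3 (a testis-specific kinase), ZzZZ at Htr2a (a serotonin receptor) and ZZzZz at Olfr283 (an olfactory receptor). In each of them 3 calls were Z, with at least 1 z between Z calls. The Htr2a read holds CpGs that touch each other at its first 3 positions, and the CpG in the middle of these was the one deaminated.

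The number of Z per read was higher at each later time. Untreated libraries A, B and C had 0.829, 1.39 and 1.22% of their calls as Z, the 6 h libraries A and B 7.50 and 7.28%, and the 12 h libraries A, B and C 24.9, 25.5 and 28.9%. No library of one time overlapped those of another. The 95% Wilson interval was 0.730 to 0.941% in untreated A and 28.4 to 29.4% in 12 h C, and covers counting error only. The mean was 1.15% ± 0.287 (SD, n = 3) at 0 h, 7.39% ± 0.157 (SD, n = 2) at 6 h and 26.4% ± 2.16 (SD, n = 3) at 12 h. The level differed between the times by the exact permutation test over all 560 assignments of the 8 libraries (two-sided p = 0.00357, the smallest it can give, adjusted p = 0.00952 over 8 measures). A pair of times alone cannot reach 0.05: the smallest p is 0.1 for 12 h against 0 h and 0.2 with the 6 h libraries. The mean number of Z per read was 0.0496 at 0 h, 0.321 at 6 h and 1.15 at 12 h.

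Z calls were gathered on fewer reads than independent calls at the same level would occupy. At least 1 Z was present on 2.58, 3.16 and 3.65% of reads in untreated A, B and C, on 23.4 and 22.2% in 6 h A and B, and on 58.0, 58.8 and 63.5% in 12 h A, B and C. The mean shares were 3.13% ± 0.535 (SD, n = 3), 22.8% ± 0.825 (SD, n = 2) and 60.1% ± 2.97 (SD, n = 3), and differed between the times (exact permutation p = 0.00357, adjusted p = 0.00952). Independent calls at each library's level would have given 4.86, 28.2 and 73.3%, so the observed share was lower at every time.

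The other side of this is reads with many Z. Among reads with 4 calls at 12 h, 40.9% ± 2.67 (SD, n = 3) carried no Z, 27.5% ± 0.622 carried 1, 18.7% ± 0.719 carried 2, 9.87% ± 1.07 carried 3 and 3.04% ± 0.737 carried 4. Independent calls would have given 29.0, 42.0, 22.9, 5.60 and 0.516% in the same order. Both ends of the distribution were thus fuller, and the middle emptier, than for independent calls. Reads with 5 calls showed the same shape at 12 h: 37.8% ± 3.62 (SD, n = 3) carried no Z, against 22.3% for independent calls, and 2.17% ± 0.622 carried 5, against 0.129%.

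**Figure D1:**
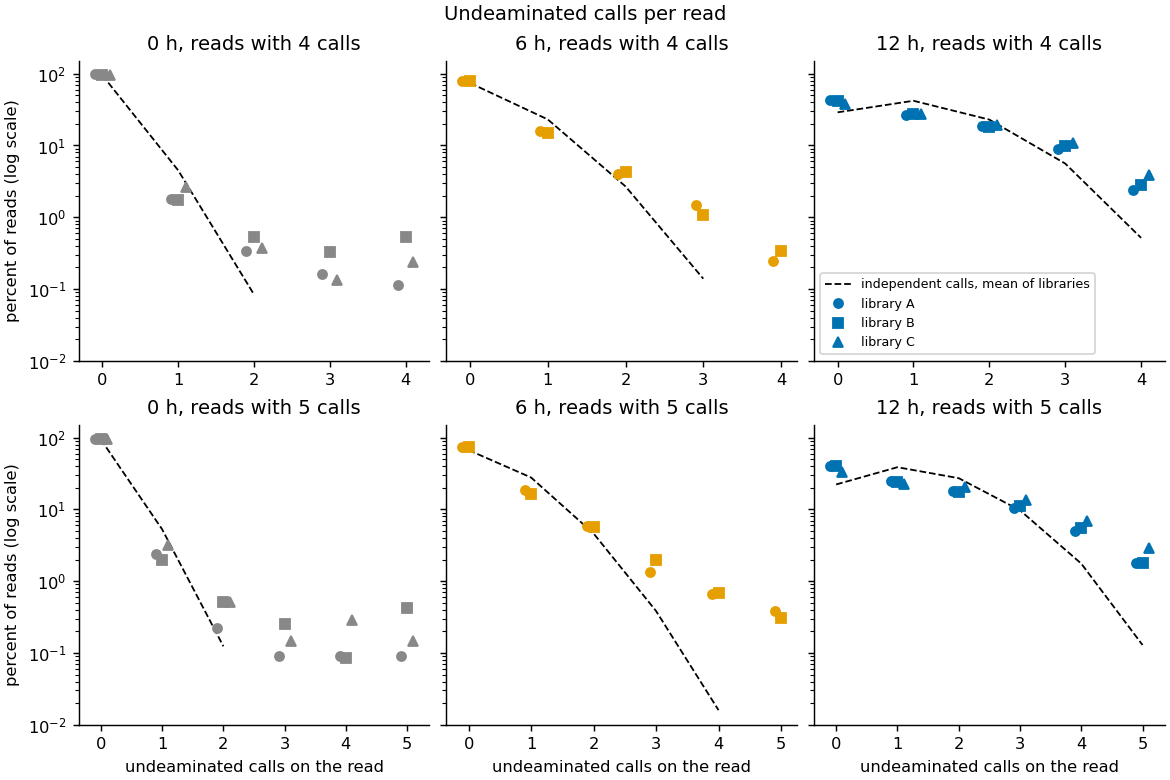
Percent of reads (log axis) by the number of undeaminated calls, for reads with 4 calls (top) and 5 calls (bottom) at 0, 6 and 12 h; points are libraries A (circles), B (squares) and C (triangles), and the dashed line is the mean for independent calls, drawn down to 0.01%. At 12 h reads without Z and reads with every call Z lie above the line, and reads with 1 Z lie below it.

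Reads on which every call was Z were found at all times. Untreated cells had 34 among 14563 reads, 6 h cells 51 among 15797 and 12 h cells 1231 among 48044, where independent calls would have given 0.000198, 0.285 and 170.4 reads. By library they made up 0.106, 0.495 and 0.208% of reads in untreated A, B and C, 0.292 and 0.330% in 6 h A and B, and 2.22, 2.49 and 3.53% in 12 h A, B and C. The 6 h libraries lay within the range of the untreated ones, and all 12 h libraries lay above both. The share differed between the times (exact permutation p = 0.0286, adjusted p = 0.0457). It missed the threshold when any 1 library of the 6 h or 12 h groups was left out (exact permutation p = 0.0571 to 0.0762). These reads held 21.2% of all Z at 0 h, 4.41% at 6 h and 9.74% at 12 h.

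The all-Z reads of untreated cells were spread over the genome: the 34 reads had 34 different sets of positions on 14 chromosomes, and 0 of them were repeats of another read. 4 of the 34 lay in high-copy windows, defined as 10 kb windows with at least 200 calls over the 8 libraries, which held 4.06 to 5.64% of the 4- and 5-call reads of the untreated libraries. At 12 h the 1231 reads had 1201 different sets of positions on all 19 chromosomes. Of them 60 (4.87%) lay within 1 kb of a gene end, a smaller share than the 3998 of all 48044 reads at 12 h. This difference was not tested.

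The gathering of Z on reads can be put as a correlation between calls of the same read, which is 0 for independent calls and 1 when all calls of a read match. It was 0.272, 0.508 and 0.305 in untreated A, B and C, 0.163 and 0.174 in 6 h A and B, and 0.199, 0.209 and 0.214 in 12 h A, B and C. All libraries without doxycycline, which held 218 to 237 Z each, lay above all the others. The difference between the times did not pass after adjustment (exact permutation p = 0.0393, adjusted p = 0.0524). In every library the correlation was above 0.

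Read from one call to the next, the same pattern appears as a level that depends on the call before it. After a Z, the next call was Z in 42.0% ± 15.3 (SD, n = 3) of cases at 0 h, 26.0% ± 0.504 (SD, n = 2) at 6 h and 43.9% ± 2.50 (SD, n = 3) at 12 h. After a z, it was Z in 0.644% ± 0.144, 5.91% ± 0.0133 and 20.3% ± 1.42 of cases. These shares contain both how Z were divided among reads and how they were placed along a read, so placement was taken up separately.

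To ask about placement alone, each read with at least 2 Z and at least 1 z was compared with every order of its own calls. The mean number of neighbouring Z-Z pairs over all orders was computed exactly, and the observed number was divided by it, so the number of Z on each read is held and a ratio above 1 means that Z lay side by side more often than after shuffling. Untreated A, B and C had 27, 39 and 37 pairs against 27.2, 26.9 and 26.3 after shuffling, ratios of 0.993, 1.45 and 1.41. At 6 h, A and B had 172 and 673 pairs against 143.5 and 587.4, ratios of 1.20 and 1.15. At 12 h, A, B and C had 5296, 5984 and 2765 pairs against 4917.7, 5594.6 and 2545.9, ratios of 1.08, 1.07 and 1.09.

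Z calls therefore lay next to each other more often than after shuffling in 7 of 8 libraries, untreated A being the exception. The excess averaged 17.8% over the 8 libraries (exact permutation test that exchanges observed and shuffled values within libraries, p = 0.0156, adjusted p = 0.0156 over 3 measures). It was 39.2% in sequencing run 1 alone, the smallest of the 3 runs, and 9.85% when reads with every call Z were included, for which all orders are alike. Summed within times, the ratio was 1.28 at 0 h (103 pairs), 1.16 at 6 h (845) and 1.08 at 12 h (14045). The untreated values rest on 28 to 31 reads per library, and the 12 h values on 2773 to 6197. Whether the ratio differs between the times could not be shown with all libraries (exact permutation p = 0.314). With untreated A left out, the ratio differed between the times (exact permutation over the 3 times, p = 0.00952), so that answer depends on 1 library. The ratio in percent, 12 h minus 0 h, was then -35.1 points, and this pair of times was not tested alone without untreated A.

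**Figure D2:**
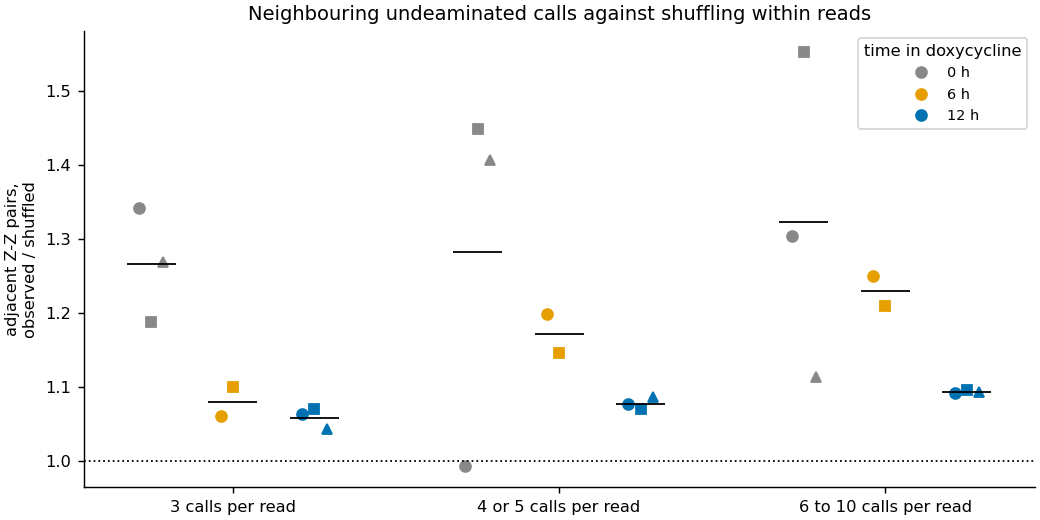
Neighbouring Z-Z pairs, observed over shuffled within reads (dotted line at 1), by number of calls per read and time; points are libraries A (circles), B (squares) and C (triangles), and short lines are means. For reads with 4 or 5 calls, 7 of 8 libraries lie above 1, and the 12 h libraries lie between 1.07 and 1.09.

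A stricter measure asked whether all Z of such a read formed 1 unbroken run. They did on 45.2, 83.9 and 82.1% of these reads in untreated A, B and C, on 60.1 and 54.9% in 6 h A and B, and on 51.5, 50.9 and 52.3% in 12 h A, B and C. Shuffling gave 44.6 to 46.5% in every library. The observed share was higher in 7 of 8 libraries, by 15.0 points on average (exact permutation p = 0.0156, adjusted p = 0.0156). In sequencing run 3 alone it missed the threshold (exact p = 0.0547). At 12 h the gain over shuffling was 5.88 to 7.74 points.

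The orders themselves showed the same at 12 h. Written in ascending chromosome position, the 5959 reads with 2 Z among 4 calls were ZZzz in 18.5 to 19.4% in the 3 libraries, zZZz in 18.4% ± 0.413 (SD, n = 3) and zzZZ in 18.1% ± 0.567, against 16.7% for each order after shuffling. The separated orders were less frequent, with ZzZz in 14.9% ± 0.909, zZzZ in 15.2% ± 0.485 and ZzzZ in 14.3% ± 0.227. Among the 3085 reads with 3 Z, the unbroken ZZZz and zZZZ made up 29.6% ± 0.899 and 28.0% ± 0.473 (SD, n = 3), and the broken ZzZZ and ZZzZ 22.0% ± 0.643 and 20.4% ± 1.37, against 25% each. The unbroken orders of these 2 classes lay above the shuffled share in all 3 libraries and the broken ones below it. In the 2900 reads with 2 Z among 5 calls, summed over the libraries, the unbroken ZZzzz, zZZzz, zzZZz and zzzZZ made up 13.1, 10.9, 11.7 and 11.7%, against 10% each. The broken orders made up 8.14% (ZzzzZ) to 9.48% (ZzZzz). Single libraries departed from this. The unbroken zZZzz in B (9.71%) and zzzZZ in C (9.56%) lay below 10%, and the broken ZzZzz (10.6%) and zZzzZ (10.1%) in C above it.

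**Figure D3:**
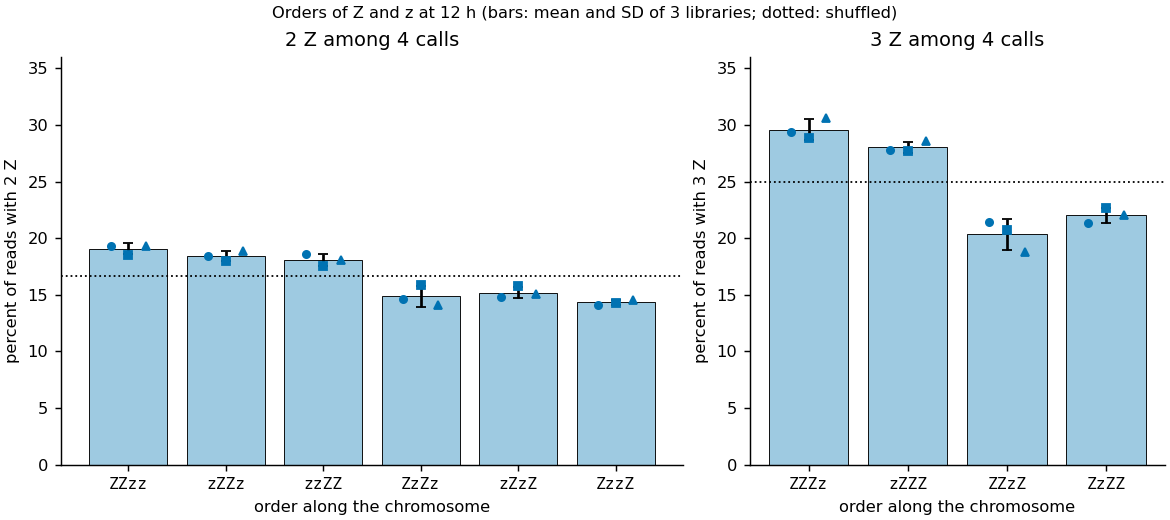
Orders of Z and z at 12 h on reads with 4 calls, as percent of reads with 2 Z (left) and 3 Z (right); bars and error bars are the mean and SD of 3 libraries, points are libraries A (circles), B (squares) and C (triangles), and dotted lines mark the shuffled share. Unbroken orders stand above the line and broken ones below it.

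The excess depended on how far apart the calls were. It was largest for neighbouring CpGs at most 10 bp apart, with summed ratios of 1.83 at 0 h (43 pairs against 23.5), 1.35 at 6 h (276 against 203.8) and 1.16 at 12 h (4409 against 3789.0). At 11 to 20 bp the ratios were 1.38, 1.18 and 1.12, at 21 to 40 bp 1.04, 1.10 and 1.04, and beyond 40 bp 0.720, 0.938 and 0.934. Since the number of Z per read is held, an excess at short distance comes with a deficit elsewhere on the read. The ratio for gaps up to 20 bp was 40.2 points higher, in percent, than for gaps over 20 bp on average over the 8 libraries (exact permutation test within libraries, p = 0.00781, the smallest it can give, adjusted p = 0.0156), and it was higher in all 8. Mean ratios up to and over 20 bp were 1.62 and 0.894 at 0 h, 1.30 and 1.03 at 6 h, and 1.15 and 0.989 at 12 h. The difference was thus largest at 0 h, where it rests on 165 and 137 pairs of neighbouring calls, and smallest at 12 h. By sequencing run, the difference was 37.3 points in run 2 (exact p = 0.00781), 40.5 in run 3, where it missed the threshold (exact p = 0.0625), and turned to -30.9 in run 1 (exact p = 0.953), which held 8 untreated reads with mixed calls.

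**Figure D4:**
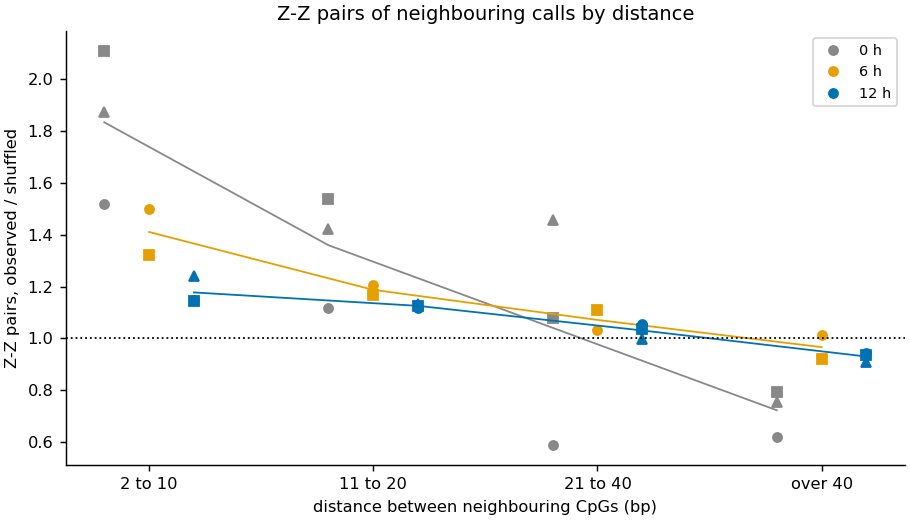
Neighbouring Z-Z pairs, observed over shuffled within reads, by the distance between the neighbouring CpGs in bp; lines join the means of 0, 6 and 12 h, and points are libraries A (circles), B (squares) and C (triangles). The 12 h means fall from 1.18 at up to 10 bp to 0.930 beyond 40 bp.

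The same held for pairs of calls that need not be neighbours. At 12 h, Z-Z pairs at most 10 bp apart were 1.15 times as frequent as after shuffling, those at 11 to 20 bp 1.11, at 21 to 40 bp 1.01, at 41 to 80 bp 0.925 and beyond 80 bp 0.876. Counted in steps along the read, calls 1 step apart had a ratio of 1.08, 2 steps 0.973, 3 steps 0.895 and 4 steps 0.865.

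Position within the read had a smaller bearing on the level. The first and last calls of a read had a level 0.105 points higher than the calls between them at 0 h, 0.402 points lower at 6 h and 0.917 points lower at 12 h. The 12 h difference was -0.968, -0.686 and -1.10 points in A, B and C. In points this difference changed over the times (exact permutation p = 0.0107, adjusted p = 0.0214). The change missed the threshold on reads with 5 calls alone (exact p = 0.157) and in sequencing run 1 alone (exact p = 0.164). The calls between the ends had mean levels of 1.10, 7.57 and 26.9% at 0, 6 and 12 h, and a change relative to the level was not tested. On reads with 4 calls at 12 h, in the order the caller wrote them, the 4 positions had levels of 26.8, 27.2, 27.2 and 25.5%.

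No difference in adjacency from reads with fewer or more calls was shown over all libraries. The adjacency ratio at 12 h was 1.06 in reads with 3 calls, 1.07 with 4, 1.08 with 5 and 1.09 with 6 to 10. The largest ratio a read can reach depends on its numbers of calls and of Z, so these classes do not share a scale. The mean ratio of 4- and 5-call reads over the 8 libraries was 3.64 points, in percent, above that of 3-call reads (exact permutation p = 0.578) and differed by -3.56 points from that of 6- to 10-call reads (exact permutation p = 0.508). Without untreated A the first difference was 9.15 points (exact p = 0.0313), and without untreated C the second was -8.27 points (exact p = 0.0156), so each answer depends on 1 library. The level at 12 h was 26.8% with 3 calls, 26.7% with 4, 26.1% with 5 and 21.9% with 6 to 10.

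Reads near gene ends had lower levels. Within 1 kb of an end of a protein-coding gene the 12 h level was 18.2, 18.3 and 21.7% in A, B and C, against 25.5, 26.2 and 29.5% farther away. The 12 h libraries did not overlap between the 2 places. The difference between the places was -0.335 points at 0 h, -1.49 at 6 h and -7.68 at 12 h. In points it changed over the times (exact permutation p = 0.00357, adjusted p = 0.00952). A difference in points can widen with the level alone, so a change relative to the level was not tested. Mean levels near and farther away were 0.839 and 1.17% at 0 h, 6.03 and 7.52% at 6 h, and 19.4 and 27.1% at 12 h. In sequencing run 1 alone the change in points missed the threshold (exact p = 0.157). All 8 libraries had a lower level near gene ends.

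The lowest levels lay around start sites. At 12 h the level was 11.9% ± 1.10 (SD, n = 3) within 0.5 kb of a start site, 16.2% ± 1.42 at 0.5 to 1 kb, 25.7% ± 3.02 at 1 to 2 kb, 27.1% ± 2.08 at 2 to 5 kb, 27.7% ± 2.39 at 5 to 20 kb and 27.0% ± 2.09 beyond 20 kb. Reads near a gene end that is not a start had levels of 23.3 to 28.0% in the 3 libraries. These distances were chosen after the data had been seen, and differences between them were not tested. At 6 h, reads near ends that are not starts were not lower in both libraries. Their level was 8.78% in A and 6.70% in B, against 7.61 and 7.44% over 1 kb from any gene end. Wholly inside the 250 bases before a start, untreated cells had 2 Z among 310 calls, 6 h cells 13 among 306 and 12 h cells 79 among 850. At 12 h, 138 of these 191 promoter reads (72.3%) carried no Z and 0 carried Z at every call. Among all reads at 12 h, 40.9% of those with 4 calls and 37.8% of those with 5 carried no Z (means of libraries). Every call was Z on 1231 of 48044 (2.56%). The promoter reads were not tested against these shares.

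**Figure D5:**
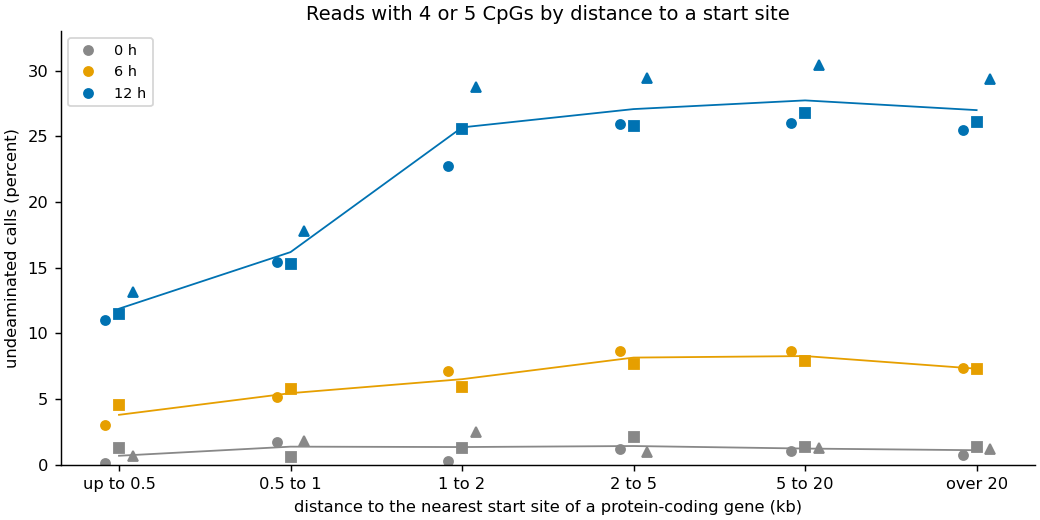
Percent of calls undeaminated on reads with 4 or 5 calls by distance to the nearest start site of a protein-coding gene, at 0, 6 and 12 h; lines join means and points are libraries A (circles), B (squares) and C (triangles). The 12 h mean is 11.9% within 0.5 kb and 25.7 to 27.7% in each class beyond 1 kb.

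Away from promoters the correlation and the adjacency at 12 h were about as large. On reads over 5 kb from a start site, a restriction added after seeing the data, the within-read correlation at 12 h was 0.201 ± 0.00757 (SD, n = 3), against 0.207 for all reads, and the summed adjacency ratio was 1.08. With repeats kept once the summed ratio was 1.07, and without high-copy windows it was also 1.07. By chromosome the 12 h level ran from 25.3% on chromosome 17 to 27.5% on chromosome 16, and the adjacency ratio was above 1 on 19 of 19 chromosomes, from 1.04 to 1.13.

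Reads of different 12 h libraries that shared at least 3 CpGs came from different molecules. There were 277 such read pairs between A and B, 87 between A and C and 112 between B and C. Both reads had a Z at the same CpG in 82, 30 and 51 cases, where independent calls at the pairs' own levels would have given 79.9, 21.9 and 35.5. The correlation of the share of Z between the reads of a pair was -0.00517, 0.175 and 0.242, given as a description, since few reads are shared and they have their place in the genome in common.

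Single genes were covered thinly. Of 20665 protein-coding genes on these chromosomes, 11975 held a read with 4 or 5 calls and 211 held at least 20. The 23 genes with the most reads, 43 or more each, had 12 h levels from 17.6% in Wwox, an oxidoreductase gene at a common fragile site, to 37.3% in Dst, which encodes the cytoskeletal linker dystonin. In Wwox (chr8:114439635-115352712) 43 of 245 calls were Z at 12 h, with levels of 14.4, 17.5 and 27.0% in A, B and C. In Dst (chr1:33907888-34308662) 60 of 161 calls were Z, with 40.4, 34.6 and 38.5%. Camta1, a transcription activator gene and the one with the most reads (94), had 20.2, 32.8 and 31.8%. The libraries of Wwox and Dst did not overlap, but both were picked from the ends of the 23, so no test was made. Of these genes, Gm37013, Gm38666 and Gm38667 overlap and share reads.

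Gene lists were covered by few reads, and their levels were not tested against each other. At 12 h the summed level over 12 of 21 pluripotency genes with reads was 28.9% (39 of 135 calls), over 21 of 31 imprinted genes 29.8% (68 of 228) and over 16 of 18 genes of the DNA methylation machinery 29.4% (48 of 163). Germline genes had 20.0% (20 of 100 calls, 12 of 20 genes), early lineage genes 14.5% (19 of 131, 14 of 21) and housekeeping genes 9.33% (7 of 75, 11 of 18). Across the 12 h libraries the levels ran from 3.85 to 14.3% for housekeeping genes, 10.4 to 19.5% for early lineage genes, 10.5 to 25.7% for germline genes and 5.56 to 33.8% for pluripotency genes. They ran from 21.1 to 37.3% for imprinted genes and from 25 to 52.4% for the machinery genes. The housekeeping range overlapped those of the early lineage, germline and pluripotency genes. Among pluripotency genes, Esrrb, an orphan nuclear receptor, had 10 of 30 calls as Z at 12 h, and Stat3, the effector of LIF signalling, 10 of 22. Of the machinery genes, Tet1 had 10 of 16 and Dnmt1, the maintenance methyltransferase, 4 of 25. Tet3 had 8 of 28, with a level of 77.8% in library A, 5.26% in B and no read in C, so its level rests on A, and reads from the transgene and from the gene itself cannot be told apart in coding sequence. Adjacent pairs in these lists numbered at most 16 and were not compared.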

How the data were processed

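Per the file headers, the authors made the calls with version 0.22.3 of Bismark's methylation extractor, which writes 1 line for each CpG of a read. Trim Galore and GRCm38 are named in the submitters' processing notes. What the authors deposited is not a number but a letter per call (Z or z), with read name, chromosome and position. Removal of duplicate reads is not given in the sources used here. A PCR copy would repeat a read's pattern, and no molecular identifiers were used.

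Groups were taken from sample titles. Lines were counted per read name and reads with 4 or 5 lines on chromosomes 1 to 19 kept. Expected pairs and runs are exact means over all orders of a read's calls. Independent expectations are binomial at each library's level. Tests were exact permutations over libraries, two-sided, with the Benjamini-Hochberg adjustment within families and a threshold of 0.05 (Python 3.11.15, numpy 2.4.6, pandas 2.3.3). The statistics were tested on simulated data. Start sites came from RefSeq promoters and gene spans from RefSeq genes, both GRCm38. In promoter windows, 3105 of 3110 calls lay at a CG of the sequence. The named genes are the 20 with the most reads, with ties, and the 3 with the most reads in each list. Alternatives were leaving out each library, repeats, high-copy windows, each call number, each of 3 sequencing runs in the read names, X and Y, and a replicate block. The members and lists were chosen with earlier results of these data known.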

Additional observations from a re-analysis of the deposited data

Results flagged for a closer look

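Reads with 4 or 5 calls outside chromosomes 1 to 19 took no part in the comparisons and also held undeaminated calls above the untreated level. At 12 h the summed level was 22.8% on X (492 of 2162 calls), 22.2% on Y (42 of 189 calls) and 23.2% on unplaced contigs (219 of 942 calls), against 0.825, 4.76 and 3.62% in untreated cells. Mitochondrial reads held 0 Z among 95 calls in untreated cells, 0 among 163 after 6 h and 7 among 459 after 12 h.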

How the results depend on the processing

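Of 220 alternatives to 13 results, 190 kept the call. A change of direction was counted as kept where neither value passed the threshold. This happened for the adjacency difference from 6- to 10-call reads (-3.56 points with all libraries). It was 0.383 without untreated A and 1.72 against reads with 6 or 7 calls. For changes over time the values given are 12 h minus 0 h. Their p-values come from the test over the 3 times, except in the replicate block. Leaving out 1 library gave ranges, 12 h minus 0 h, of 2.09 to 2.74 points for all-Z reads, -0.199 to -0.0809 for the correlation (past 0.05 in 3 of 8, and missed without any 1 of the 6 h or 12 h libraries, exact p = 0.105 to 0.157), -35.1 to -12.2 for the adjacency ratio in percent and -31.1 to -11.4 points for the share of unbroken runs. Against 3-call reads the adjacency difference ranged from 0.414 to 9.15, and against 6- to 10-call reads from -8.27 to 0.383. The correlation difference also missed the threshold without high-copy windows (-0.141, p = 0.0536), over 5 kb from start sites (-0.161, p = 0.05), in run 1 (-0.0718) and in run 3 (-0.128), by exact permutation. Also in run 1, the smallest, the change in the end difference (-1.57) and in the gene-end difference (-5.07) missed it, and the excess at short gaps reversed (-30.9, exact p = 0.953). In run 3 the run share (10.7 points, exact p = 0.0547) and the short-gap excess (40.5, exact p = 0.0625) missed it. On 5-call reads the change in the end difference (-0.881, exact p = 0.157) missed it as well. With a replicate block, whose smallest exact p is 0.25, no result could pass: level 25.3, reads with a Z 57.0, all-Z reads 2.48, correlation -0.154, end difference -1.02, gene-end difference -7.35. The letters are not shown to pair libraries: of 7 same-letter pairs, 3 correlated above 0.1 (r from -0.213 to 0.258). The cause of these changes was not tested. Depth limits the untreated placement values, which rest on 90 reads.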
